A study of Mus musculus with 6 samples.

Results

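The comparison set 2 pools of mouse dorsal root ganglion neurons with the title code L6-R against 2 pools with the code L3-S, which made 4 of the 6 arrays of the study. The arrays were chosen by their labels alone. Each of the 4 pools held total RNA of 20 neurons marked with DiI, a membrane dye used to trace axons back to their cell bodies. Each code had 1 pool of big diameter neurons and 1 pool of medium to small diameter neurons, so that every gene gave a difference (L6-R minus L3-S) in a big pair and in a medium to small pair, and the pairs shared no array. The other 2 arrays, of 50 control neurons each with the code L3-B, entered the choice of probe sets and tested genes, and in the fit they helped to estimate the spread and the size class effect. The sources used here gave no strain, age or sex, and neither what the codes mean, where the dye was placed nor how many animals were used, and no treatment other than the dye was named. With 1 array for each code and size class, no pool had a replicate. The p-values therefore rest only on how unequal the code differences were between the size classes, L3-B included, drawn towards the spread of all genes. That spread may be technical or go with neuron size, which cannot be told apart here. A pool is a bulk sample, so that fewer neurons of a type and less RNA per neuron cannot be told apart.

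Sensory neurons of the trunk and limbs have their cell bodies in the dorsal root ganglia. Large neurons with myelinated axons mostly carry touch and the sense of limb position, and many of them contain calcium-binding proteins such as parvalbumin. Smaller neurons include peptidergic nociceptors, which sense damage and release neuropeptides, and non-peptidergic nociceptors. When a peripheral axon is damaged or regrows, these neurons are known to switch on transcription factors such as Atf3 and Sox11, several neuropeptides and genes of axon growth.

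Signals of the deposited table were used as linear intensities and compared as log2(signal + 32), which shrinks differences of dim genes. A signal under 32 is treated here as near background. Such signals made up 55.3% to 58.5% of the probe sets of a DiI array. In each sentence below the signals are given for the big and then the medium to small pool. Across all 9097 genes tested, the L3-S arrays correlated at 0.976 with each other, the L6-R arrays at 0.974, and arrays of different codes at 0.935 to 0.939. The 3' to 5' signal ratio of the Actb control, a measure of how complete the RNA was, stood at 5.42 and 11.99 for the L3-S pools against 8.31 and 8.42 for the L6-R pools. It differed more within L3-S than between the codes. The L6-R big array stood apart in its spiked-in controls, with 422 for the 3' BioB hybridization control against 126, 177 and 199 on the L3-S big, L3-S medium to small and L6-R medium to small arrays, and 6440 against 1676, 1886 and 2521 for the 3' Dap control. The part of this in the results was not tested.

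Of the 9097 genes, 289 passed an adjusted p of 0.05 (limma, Benjamini-Hochberg), which is 3.18% of the genes tested. Of these, 115 rose in L6-R (1.26%) and 174 fell (1.91%). All 115 were higher in L6-R in both pairs and all 174 were lower in both pairs. The called differences ran from 1.02 to 4.39 log2 upward and from 1.02 to 5.07 log2 downward in size. A difference of at least 1 log2 in the same direction in both pairs was reached by 112 genes upward (1.23%) and 157 downward (1.73%), and 240 of these 269 were also called. The median difference over all genes was -0.02 in the big pair and -0.01 in the medium to small pair, with an SD across genes of 0.57 and 0.55. Across genes, which are not independent replicates, the 2 pair differences correlated at 0.604, and 65.2% of genes had the same sign in both pairs. By sign alone, 31.3% of genes were higher in L6-R in both pairs and 33.9% were lower. Further probe sets of the called genes were read as a description, since probe sets of a gene share the RNA. They were higher in both pairs for 38 of 40 further probe sets of genes that rose, and lower in both pairs for 72 of 80 of genes that fell. Over all tested genes, those of mixed sign included, 1756 of 5126 further probe sets had the sign of the gene in both pairs. Only further probe sets above the minimum of the filter were counted, so dim ones are left out. The number of called genes was 257 without the L3-S big array, 285 without the medium to small L3-S array and 140 without either L6-R array, and it was 653 without either L3-B array. In all, 88 of the 289 genes (30 that rose and 58 that fell) kept their call when each of the 4 DiI arrays was left out in turn. On log2(signal + 1) with the same probe sets and genes, 147 of the 289 were called, and 161 were called on the mean over a gene's probe sets; named genes that lost a call in this way are given in each paragraph below. The filter on mean level was itself open to the codes, since 35 of the 115 genes that rose were above its minimum only with the L6-R arrays, and 20 of the 174 that fell only with the L3-S arrays.

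**Figure D1:**
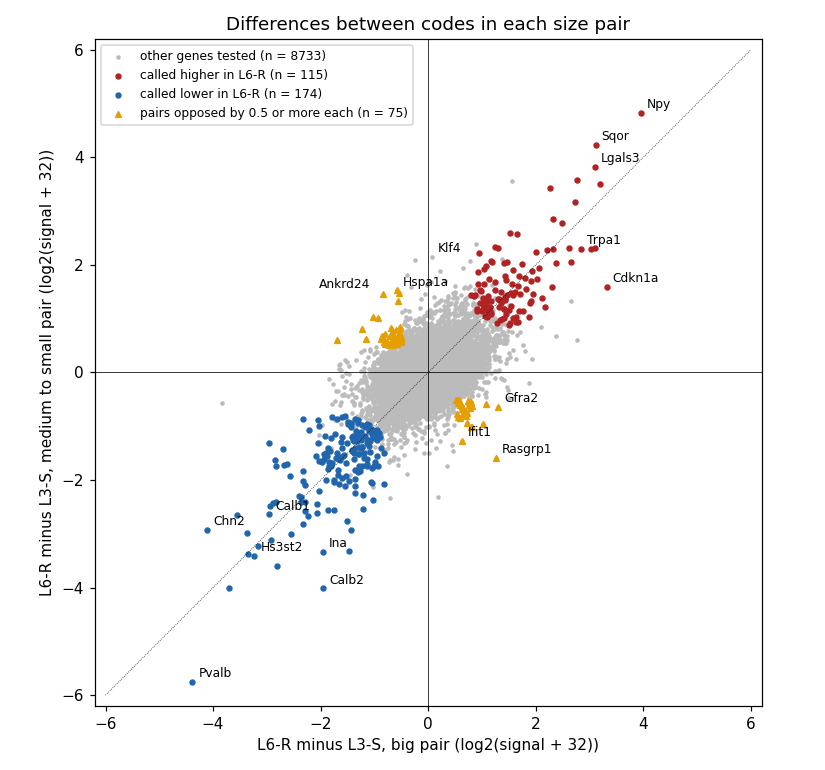
Each point is 1 of the 9097 genes tested, placed by its L6-R minus L3-S difference in the big pair (x axis, log2(signal + 32)) and in the medium to small pair (y axis, same scale), with the dotted line where both are equal. The 115 genes called higher (red) lie in the upper right, the 174 called lower (blue) in the lower left, and the 75 genes whose pairs are opposed by at least 0.5 log2 each (orange triangles) in the other 2 quadrants.

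Neuropeptide genes were among the largest rises, beside 1.26% called higher and 1.91% lower among all genes tested. Only 9 of 32 precursors on the array passed the filter, and 3 of the 4 that rose (Npy, Cartpt and Gal) passed it through their L6-R signals, so that the count describes these genes and not all precursors. None fell and 5 did not pass the test. Npy, neuropeptide Y, had signals of 25 and 17 in L3-S against 849 and 1368 in L6-R, so that both L3-S pools were near background and both L6-R pools far above it. Its difference was 4.39 ± 0.26 log2 (SE; adjusted p = 0.000566; n = 2 arrays of each code). Cartpt, the precursor of the CART peptides, had 45 and 53 in L3-S against 473 and 738 in L6-R and rose by 2.95 ± 0.28 (adjusted p = 0.00170). Gal, galanin, had 46 and 31 against 216 and 158 and rose by 1.63 ± 0.22 (adjusted p = 0.00742). The groups did not overlap for any of the 3, which adds no support, since these genes were picked as called and passed the filter through L6-R. Tac1, the precursor of substance P, was already bright in L3-S at 1758 and 1429 and reached 5435 and 4090 in L6-R, a rise of 1.55 ± 0.24 (adjusted p = 0.0136). Tac1 lost its call without the medium to small L6-R array (1.46, adjusted p = 0.0911), and the other 3 kept theirs without any 1 DiI array. Tac1 was also not called on log2(signal + 1) (adjusted p = 0.0648) or on the mean over probe sets (0.76, adjusted p = 0.0865). Adcyap1, the precursor of PACAP, stood at 1.07 without passing (adjusted p = 0.0531), and Calcb, the second calcitonin gene-related peptide gene, at -0.03 with 2291 and 3266 in L3-S against 2424 and 2974 in L6-R. Among 16 granins and peptide-processing genes none rose and 1 fell. This was Chgb, chromogranin B of the dense-core granules, with 2999 and 3018 in L3-S against 1287 and 1046 in L6-R, a fall of 1.35 (adjusted p = 0.0188), which was not called without either L6-R array (adjusted p = 0.0611 and 0.216) or on log2(signal + 1) (adjusted p = 0.0575).

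Genes of the response to axon damage and of axon growth rose in part, beside 1.26% called higher and 1.91% lower among all genes. Of 23 tested transcription factors of that response 2 rose, Atf3 and Sox11, while 17 of the 23 were higher in both pairs and 2 lower in both. Their median was 0.53. Of the 23, 3 passed the filter only with the L6-R arrays, Atf3 and Sox11 not among them. Atf3, a stress-induced factor, had signals of 110 and 66 in L3-S against 680 and 674 in L6-R, and Sox11, a factor of developing and regrowing neurons, had 122 and 53 against 709 and 873. The rises were 2.59 ± 0.28 (adjusted p = 0.00254) and 2.84 ± 0.43 (adjusted p = 0.0119), and both calls held without any 1 DiI array. On log2(signal + 1) Sox11 was not called (3.28, adjusted p = 0.115). Jun, a partner of Atf3, was bright in all pools at 973 and 1163 against 1637 and 1574, and its difference of 0.58 did not pass (adjusted p = 0.25). Of 29 effectors of axon growth 3 rose and none fell, and all 3 passed the filter only with the L6-R arrays. In both pairs 20 of the 29 were higher and 6 lower, 1 of them by at least 1 log2. Fst, the activin-binding protein follistatin, rose by 2.20 ± 0.24 from 31 and 58 to 295 and 335 (adjusted p = 0.00254). Cd44, a receptor for hyaluronan, rose by 1.48 from 145 and 108 to 333 and 498 (adjusted p = 0.0235). Sprr1a, a small proline-rich protein made by regrowing sensory axons, rose by 1.45 from 64 and 45 to 294 and 136 (adjusted p = 0.0180). Cd44 was not called without the medium to small L3-S array (1.10, adjusted p = 0.1) or the L6-R medium to small array (1.21, adjusted p = 0.222), and Sprr1a not without the L3-S big array (1.23, adjusted p = 0.0652) or the L6-R big array (1.19, adjusted p = 0.205). On log2(signal + 1) neither was called (adjusted p = 0.127 and 0.109), nor was Cd44 on the mean over probe sets (0.85, adjusted p = 0.0708). Gap43, a growth cone protein, had 1734 and 2502 against 4636 and 3859, a difference of 1.01 that did not pass (adjusted p = 0.0923). Tubb6, a beta-tubulin, was the 1 of 11 tubulins that rose, by 3.35 ± 0.23 from 78 and 51 to 984 and 904 (adjusted p = 0.000566). Tubb6 passed the filter only with the L6-R arrays. Another 7 tubulins were higher in both pairs and none was lower in both.

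Atf3 and Jun belong to families that bind AP-1 and cyclic AMP response elements, so the 250 bases upstream of the start of the called genes were searched for TGAGTCA (AP-1) and TGACGTCA (the cyclic AMP response element), each on both strands, in RefSeq promoters of the build GRCm38.p6. The table held promoters for 92 of the 115 genes that rose and 142 of the 174 that fell. TGAGTCA was found in 6.56% of the promoters of genes that rose, 6.77% of those of genes that fell and 3.06% of those of all genes tested. TGACGTCA was found in 2.46%, 2.60% and 2.66%. For genes that rose and fell the shares were close for both motifs, and AP-1 rested on 8 and 13 promoters. The other motifs searched on both strands were TTCCNGGAA (STAT; 0.82%, 0 of 192 and 0.801%), CACGTG (an E-box; 12.3%, 5.21% and 8.57%) and TATAAA (9.84%, 6.25% and 5.94%), in the same order. None of these letter strings contains another. None of these share differences was tested. A match is a description and not a binding site. Sprr1a, which holds TGAGTCA more than once, and Cartpt and Dusp1, which hold TGACGTCA, are shown because they rose and carry these letters. The capitals mark TGAGTCA and TGACGTCA, while a CACGTG in Dusp1 and a TATAAA in Sprr1a are in lower case, and the sequences run 5' to 3' towards the gene start at chr3:92485882-92486131, chr13:99900684-99900933 and chr17:26508473-26508722, all on the minus strand.
Sprr1a: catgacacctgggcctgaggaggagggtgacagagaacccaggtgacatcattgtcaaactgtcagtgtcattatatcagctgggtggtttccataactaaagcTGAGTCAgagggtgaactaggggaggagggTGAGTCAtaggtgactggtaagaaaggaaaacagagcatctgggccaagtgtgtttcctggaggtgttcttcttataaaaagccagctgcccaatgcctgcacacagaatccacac
Cartpt: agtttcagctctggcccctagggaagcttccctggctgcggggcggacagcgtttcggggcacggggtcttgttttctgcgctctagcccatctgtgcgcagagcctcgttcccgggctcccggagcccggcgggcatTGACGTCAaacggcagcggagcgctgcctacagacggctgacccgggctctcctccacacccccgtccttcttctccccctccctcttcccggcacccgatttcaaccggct
Dusp1: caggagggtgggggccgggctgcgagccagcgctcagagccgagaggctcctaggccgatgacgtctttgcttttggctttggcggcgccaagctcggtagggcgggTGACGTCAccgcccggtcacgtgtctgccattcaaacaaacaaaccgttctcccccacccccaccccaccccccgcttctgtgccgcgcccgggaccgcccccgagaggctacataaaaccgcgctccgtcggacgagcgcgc

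Cytokine receptor and growth arrest genes held further rises, beside 1.26% called higher and 1.91% lower among all genes. Of 15 genes of gp130 cytokine signalling, the pathway of interleukin-6 type cytokines, 2 rose, of which Osmr passed the filter only with the L6-R arrays. Osmr, the oncostatin M receptor subunit, had 66 and 33 in L3-S against 767 and 289 in L6-R and rose by 2.66 ± 0.46 (adjusted p = 0.0196). Socs3, the feedback inhibitor of this pathway, had 219 and 295 against 652 and 1041 and rose by 1.58 ± 0.30 (adjusted p = 0.0285), and lost its call without the L3-S big array (1.43, adjusted p = 0.0514) or the L6-R medium to small array (1.23, adjusted p = 0.224). Of 23 genes of growth arrest, DNA damage and apoptosis 3 rose and 1 fell, and 1 of the 3 passed the filter only with the L6-R arrays. Cdkn1a, which encodes the cell cycle inhibitor p21, had 56 and 217 against 847 and 718. Its rise of 2.45 ± 0.37 (adjusted p = 0.0118) was 3.31 in the big and 1.59 in the medium to small pair, a gap of 1.73, and the L3-S pools lay farther apart than the L6-R pools. Gadd45g and Gadd45a, which are induced by DNA damage and other stress, rose by 1.33 (adjusted p = 0.0258) and 1.28 (adjusted p = 0.0487), and Tnfrsf1a, a tumour necrosis factor receptor, fell by 1.10 (adjusted p = 0.0425). These 3 calls were each lost without at least 3 of the 4 DiI arrays in turn, with differences of 0.85 to 1.44 for the Gadd45 genes and -0.93 to -1.27 for Tnfrsf1a. Csf1, a growth factor of macrophages and microglia, rose by 1.41 from 52 and 61 to 195 and 213 (adjusted p = 0.0210), but not past the threshold without the L3-S big array (adjusted p = 0.0674) or either L6-R array (0.0659 and 0.176). Its other probe sets did not show the rise, with mean differences of -0.05, 0.08 and 0.13, and the mean over its probe sets was 0.39 (adjusted p = 0.412). Of 17 immediate early genes 1 rose, 1 fell and 14 were higher in both pairs. This tally was open to the filter, which 4 of the 17 passed only with the L6-R arrays. Dusp1, which switches off MAP kinases, rose by 1.39 from 624 and 585 to 1514 and 1761 (adjusted p = 0.0174), and Dusp5, a phosphatase of ERK, fell by 1.71 from 205 and 178 to 84 and 8 (adjusted p = 0.0316). Neither was called without the medium to small L6-R array (1.20 and -1.10, adjusted p = 0.200 and 0.280), nor Dusp1 without the L6-R big array (adjusted p = 0.0513) or Dusp5 without the medium to small L3-S array (adjusted p = 0.0739). Dusp26, a related phosphatase, rose by 1.80 from 455 and 461 to 1797 and 1562 (adjusted p = 0.00555) and kept its call without any 1 DiI array. Of the genes of this paragraph Osmr (3.30, adjusted p = 0.116), Cdkn1a (2.80, adjusted p = 0.102), Socs3 (0.0796), Gadd45g (0.0691), Gadd45a (0.0941), Tnfrsf1a (0.0691), Csf1 (0.0503), Dusp1 (0.0521) and Dusp5 (0.125) were not called on log2(signal + 1), and Socs3 (0.0745), Gadd45a (0.0627) and Dusp5 (0.0523) not on the mean over probe sets.

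Among calcium-binding proteins, 8 of 21 tested members fell, none rose and 13 did not pass (38.1% called, against 3.18% of all genes), 14 were lower in both pairs and 3 higher, and the median was -0.76 in the big and -0.59 in the medium to small pair. Pvalb, parvalbumin, had signals of 2084 and 3413 in L3-S against 69 and 32 in L6-R, and fell by 5.07 ± 0.32 (adjusted p = 0.000566). Caln1, calneuron 1, had 614 and 552 against 32 and 24 and fell by 3.36 ± 0.24 (adjusted p = 0.000566), so that both L6-R pools were at background. Calb1, calbindin, had 1976 and 1562 against 227 and 224 and fell by 2.80 ± 0.22 (adjusted p = 0.000957). Calb2, calretinin, had 151 and 516 against 15 and 2 and fell by 2.99 ± 0.42 (adjusted p = 0.00826), with -1.96 in the big and -4.01 in the medium to small pair. Vsnl1, a visinin-like neuronal calcium sensor, had 1956 and 2256 against 352 and 426 and fell by 2.35 (adjusted p = 0.00208). Calls of these 5 held without any 1 DiI array, and those of Pcp4 (-1.28), Kcnip2 (-1.41) and Necab2 (-1.20) did not, with adjusted p-values of up to 0.205, 0.190 and 0.344. Pcp4 and Kcnip2 were also not called on log2(signal + 1) (adjusted p = 0.0759 and 0.0729). The class was not uniform, since Hpcal1 and Kcnip1, 2 other neuronal calcium sensors, were higher in both pairs (0.41 and 0.38) without passing. In the S100 family of small calcium-binding proteins, listed apart with the annexins, S100a16 fell by 3.20 from 1838 and 2248 to 176 and 212 (adjusted p = 0.000566) and S100a6 rose by 1.29 from 1571 and 1705 to 4729 and 3448 (adjusted p = 0.0425), the latter not called without the L3-S big array (0.92, adjusted p = 0.240) or either L6-R array (1.23 and 1.34, adjusted p = 0.227 and 0.165), on log2(signal + 1) (adjusted p = 0.105) or on the mean over probe sets (adjusted p = 0.0516).

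**Figure D2:**
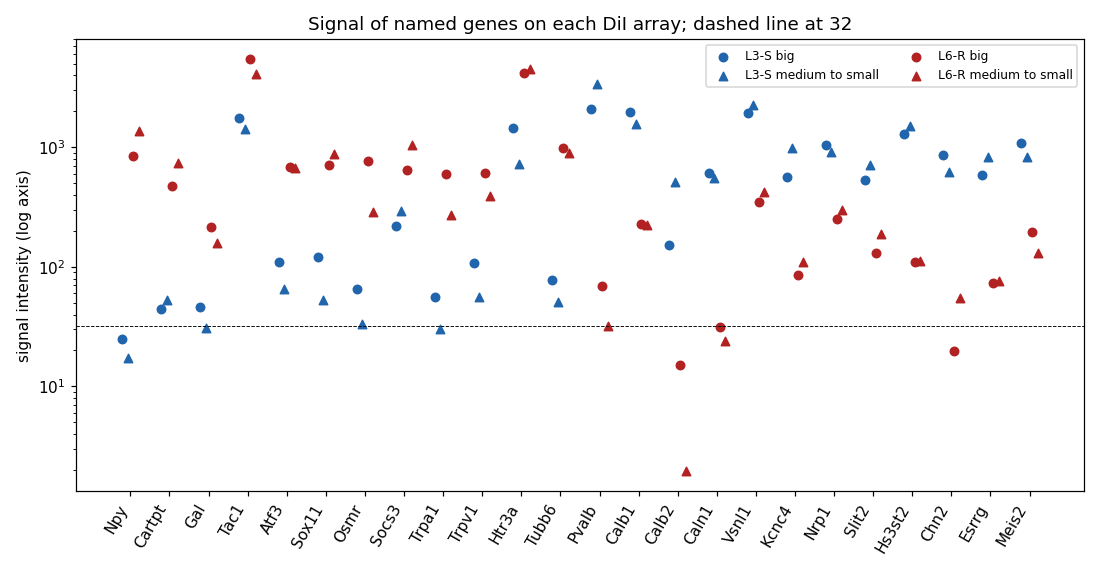
Signal intensity (log axis) of 24 named genes on each of the 4 DiI arrays, with L3-S in blue, L6-R in red, circles for big and triangles for medium to small pools, and a dashed line at 32. All 24 were picked from the called genes. For the first 12 genes both red points lie above both blue points, and for the other 12 both lie below; Npy reaches 849 and 1368 from 25 and 17, and Calb2 falls to 15 and 2.

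Genes of cell adhesion, axon guidance and the pericellular matrix held calls in both directions, beside 1.26% higher and 1.91% lower among all genes. Of 52 immunoglobulin-type adhesion molecules and synaptic organisers 8 fell and none rose. Tenm2, a teneurin that pairs with receptors across the synapse, had 2205 and 2531 in L3-S against 580 and 404 in L6-R and fell by 2.21 ± 0.25 (adjusted p = 0.00329). Cntnap5a, a contactin-associated protein, fell by 1.79 from 232 and 266 to 51 and 48 (adjusted p = 0.00742). Both kept their calls without any 1 DiI array, and Tenm3 (-1.60), Cntn4 (-1.44), Ncam2 (-1.28), Cntnap4 (-1.16), Cbln2 (-1.09) and Tenm4 (-1.04) did not, with adjusted p-values of 0.0717 to 0.473 at their highest. The class median was near that of all genes at -0.10, with 18 members higher and 20 lower in both pairs. Of 35 guidance ligands and receptors 5 fell and 2 rose. Nrp1 and Nrp2, the neuropilin co-receptors of class 3 semaphorins, had 1053 and 916 against 251 and 301, and 404 and 506 against 88 and 123. They fell by 1.72 (adjusted p = 0.00749) and 1.83 (adjusted p = 0.00826). Sema3e, a class 3 semaphorin, fell by 2.21 from 598 and 339 to 66 and 80 (adjusted p = 0.0101), Sema7a, a membrane-anchored semaphorin, by 1.75 from 318 and 693 to 93 and 147 (adjusted p = 0.0177), and Slit2, a ligand of Robo receptors, by 1.77 from 538 and 712 to 132 and 190 (adjusted p = 0.00630). All 5 held without any 1 DiI array, but on the mean over probe sets Sema3e (-0.99, adjusted p = 0.0554), Sema7a (-0.79, adjusted p = 0.115) and Slit2 (-1.08, adjusted p = 0.0517) were not called. The 2 that rose, Sema6a by 1.25 (adjusted p = 0.0298) and the netrin receptor Unc5b by 1.13 (adjusted p = 0.0341), came from signals of 62 and 24 and of 89 and 114. Both passed the filter only with the L6-R arrays. They lost their calls without 3 and 4 of the DiI arrays in turn, with 1.03 to 1.46 and 1.01 to 1.26. Of 20 heparan sulfate and proteoglycan genes 3 fell and none rose. Hs3st2, a heparan sulfate sulfotransferase, had 1293 and 1497 against 109 and 112 and fell by 3.32 ± 0.30 (adjusted p = 0.00148), and Sulf2, which removes sulfate from the same chains outside the cell, fell by 1.83 from 1150 and 1514 to 372 and 324 (adjusted p = 0.00666). Extl2, an enzyme of chain synthesis, fell by 1.10 (adjusted p = 0.0357), and not past the threshold without any 1 of the 4 arrays (adjusted p = 0.0760 to 0.276). Pcdh8, a protocadherin, fell by 3.86 from 694 and 1541 to 24 and 66 (adjusted p = 0.00208). Of 26 other matrix and protease genes 2 rose and 3 fell, and 1 of the 2 passed the filter only with the L6-R arrays. Lgals3, the secreted lectin galectin-3, rose by 3.46 ± 0.25 from 40 and 15 to 585 and 634 (adjusted p = 0.000566), and Comp, a cartilage matrix protein, by 3.17 ± 0.26 from 269 and 133 to 2024 and 1940 (adjusted p = 0.00100). Adamts3, a protease that processes procollagen, fell by 1.65 from 163 and 196 to 28 and 44 (adjusted p = 0.00749). Pcdh8, Lgals3, Comp and Adamts3 kept their calls without any 1 DiI array. On the mean over probe sets Tenm2 (-0.96, adjusted p = 0.0507), Sulf2 (-0.65, adjusted p = 0.177), Adamts3 (-0.75, adjusted p = 0.0863), Cntn4 (0.0507), Tenm4 (0.0852), Extl2 (0.0572), Sema6a (0.159) and Unc5b (0.0978) were not called. On log2(signal + 1) Cbln2, Cntnap4, Extl2, Ncam2, Sema6a, Tenm4 and Unc5b were not called, with adjusted p-values of 0.0506 to 0.299.

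Among small GTPases and their regulators, which relay receptor signals to the cytoskeleton, 9 of 84 tested members fell, 2 rose and 73 did not pass. In both pairs 29 were higher and 35 lower, and the median was 0.00 in the big and -0.13 in the medium to small pair. Chn2, a chimaerin that inactivates Rac, had 867 and 628 in L3-S against 20 and 55 in L6-R and fell by 3.52 ± 0.32 (adjusted p = 0.00152). Rasgrf1, an exchange factor for Ras that responds to calcium, fell by 2.62 from 509 and 591 to 44 and 86 (adjusted p = 0.00814), and Vav3, an exchange factor for small GTPases, by 2.46 from 278 and 394 to 34 and 35 (adjusted p = 0.00171). Arhgap31, a Rac and Cdc42 inactivator, rose by 2.31 from 27 and 33 to 262 and 285 (adjusted p = 0.0192). These 4 calls held without any 1 DiI array, and Arhgap31 was not called on log2(signal + 1) (3.16, adjusted p = 0.0941). Of 70 actin-binding and contractile proteins 4 rose and 1 fell (7.14% called), and 31 were higher in both pairs against 13 lower. Mical1, which oxidises actin, rose by 2.63 from 133 and 100 to 887 and 873 (adjusted p = 0.00630), Tagln2, a transgelin, by 2.11 from 617 and 324 to 2017 and 2077 (adjusted p = 0.0194), and Tpm4, a tropomyosin, by 1.76 from 214 and 179 to 648 and 844 (adjusted p = 0.00749). Fscn1, which bundles filaments, rose by 1.46 (adjusted p = 0.0226). Myh10, a non-muscle myosin heavy chain, fell by 1.72 from 3962 and 3770 to 1048 and 1258 (adjusted p = 0.00709). Tpm4 (adjusted p = 0.0593 without the medium to small L6-R array), Myh10 (0.0544 without the L6-R big array) and Fscn1 (0.259 without the L6-R big and 0.0956 without the L3-S big array) were not called with fewer arrays. Tagln2 (2.19, adjusted p = 0.0778) and Fscn1 (0.0695) were not called on log2(signal + 1), and Fscn1 (0.19, adjusted p = 0.653) and Myh10 (-0.94, adjusted p = 0.0505) not on the mean over probe sets.

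Ion channel families held calls in both directions, beside 1.26% higher and 1.91% lower among all genes. Of 38 potassium channel subunits 6 fell and none rose, and 1 of the 6 passed the filter only with the L3-S arrays. Kcnc4, a voltage-gated subunit, had 564 and 978 in L3-S against 86 and 111 in L6-R and fell by 2.58 ± 0.25 (adjusted p = 0.00170). Kcnd3, an A-type subunit, fell by 2.17 from 1473 and 1541 to 269 and 356 (adjusted p = 0.00208), and Kcnk1, a leak channel, by 1.75 from 1170 and 1299 to 343 and 345 (adjusted p = 0.00661). The other 3 were Kcnip2, described above, Kcnh2 (-1.11) and Kcne4 (-1.09), which lost their calls without 3 and 4 of the DiI arrays in turn (adjusted p up to 0.295 and 0.5). Of 15 TRP, Piezo and acid-sensing channels 3 rose and 1 fell, and 2 that rose (Trpa1 and Trpv1) passed the filter only with the L6-R arrays. Trpa1, the irritant-gated channel, had 56 and 30 against 600 and 274 and rose by 2.57 ± 0.24 (adjusted p = 0.00155), and Trpv1, the channel opened by heat and capsaicin, had 108 and 56 against 616 and 392 and rose by 2.24 ± 0.25 (adjusted p = 0.00367). Trpv2 rose by 1.15 (adjusted p = 0.0333) and Asic1, opened by acid, fell by 1.51 from 539 and 785 to 155 and 277 (adjusted p = 0.0210), the former not called without any 1 of the 4 arrays (adjusted p = 0.0564 to 0.270) and the latter not without the L6-R big array (adjusted p = 0.194). Of 22 ligand-gated receptor subunits 3 rose and none fell, and 2 of the 3 (Chrna3 and Gabrb1) passed the filter only with the L6-R arrays. The 3 were Htr3a, a serotonin-gated channel (2.05, from 1441 and 731 to 4166 and 4559, adjusted p = 0.00919), the nicotinic subunit Chrna3 (1.79, from 19 and 63 to 145 and 291, adjusted p = 0.00905) and the GABA-A subunit Gabrb1 (1.70, from 40 and 139 to 294 and 367, adjusted p = 0.0254). Htr3a and Chrna3 lost their calls without the medium to small L6-R array (adjusted p = 0.0552 and 0.0509), and Gabrb1 without the L3-S or the L6-R big array (adjusted p = 0.0880 and 0.111). Of 12 calcium channel subunits and AMPA receptor auxiliary proteins 1 rose and 2 fell. Cacna2d1, the alpha-2-delta subunit that gabapentin binds, rose by 1.62 from 637 and 397 to 1486 and 1747 (adjusted p = 0.0378), and Cacng5, an auxiliary protein of AMPA receptors, fell by 2.17 from 499 and 705 to 54 and 194 (adjusted p = 0.00749). Cacng5 held without any 1 DiI array, and Cacna2d1 was not called without the medium to small L3-S array (1.05, adjusted p = 0.134) or either L6-R array (adjusted p = 0.0706 and 0.125). None of 10 sodium channel subunits passed in limma, where 3 had an unadjusted p under 0.05, against 1422 of all 9097 genes. Scn9a, a subunit of nociceptors, stood at 1.06 with 1449 and 1498 against 3535 and 2739 (adjusted p = 0.0744). Of 50 G protein-coupled receptors 1 rose and 4 fell. Agtr1b, an angiotensin receptor, rose by 1.88 from 126 and 66 to 498 and 366 (adjusted p = 0.00550), and F2r, the thrombin receptor, fell by 1.95 from 2881 and 2542 to 753 and 608 (adjusted p = 0.00367). Both held without any 1 DiI array, as did Ptgfr, a prostaglandin F receptor, which fell by 2.24 from 451 and 141 to 35 and 24 (adjusted p = 0.0231). Ano1, a chloride channel opened by calcium, fell by 3.20 from 248 and 571 to 8 and 18 (adjusted p = 0.00107), and Car2, a carbonic anhydrase, by 3.11 from 868 and 1231 to 45 and 168 (adjusted p = 0.00152). On the mean over probe sets Kcnd3 (-0.68, adjusted p = 0.145), Cacng5 (-0.89, adjusted p = 0.120), Ptgfr (-1.23, adjusted p = 0.0997), Chrna3 (1.07, adjusted p = 0.0928) and Gabrb1 (0.89, adjusted p = 0.132) were not called. On log2(signal + 1) Asic1, Cacna2d1, Gabrb1, Kcne4, Kcnh2, Kcnip2 and Trpv2 were not called, with adjusted p-values of 0.0609 to 0.103. With a larger pseudocount Ptgfr (-1.33, adjusted p = 0.0666) and Kcne4 (-0.54, adjusted p = 0.124) were not called.

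Synaptic release, transcription and position genes gave single changes. Of 51 SNARE and vesicle proteins 4 fell and none rose (7.84% called, against 3.18% of all genes). In both pairs 24 were lower and 12 higher, against 33.9% and 31.3% of all genes. Stxbp6, which binds syntaxin, fell by 3.02 from 455 and 814 to 32 and 66 (adjusted p = 0.00749), and Vamp1, a vesicle SNARE, by 1.26 from 3250 and 3667 to 1339 and 1506 (adjusted p = 0.0216), the latter not called without the L3-S big array (-1.20, adjusted p = 0.0724) or either L6-R array (-1.33 and -1.19, adjusted p = 0.130 and 0.208). Of 37 transcription factors of sensory neurons 2 fell (5.41% called). Esrrg, an orphan nuclear receptor, had 590 and 830 against 74 and 76 and fell by 2.78 ± 0.23 (adjusted p = 0.00100), and Meis2, a homeodomain factor, had 1094 and 827 against 197 and 130 and fell by 2.35 ± 0.22 (adjusted p = 0.00152). Of 20 nuclear receptors and circadian genes 1 rose and 3 fell. Esr1, an oestrogen receptor, rose by 1.22 from 361 and 453 to 1099 and 881 (adjusted p = 0.0403), but not without the L3-S big array (adjusted p = 0.149) or either L6-R array (adjusted p = 0.480 and 0.0595). Nr3c2, the mineralocorticoid receptor, fell by 1.51 from 213 and 152 to 28 and 61 (adjusted p = 0.0280), but not without the L3-S or the L6-R big array (adjusted p = 0.106 and 0.303). Fgf9, a fibroblast growth factor, fell by 1.65 from 1040 and 1064 to 296 and 333 (adjusted p = 0.00742), and Inhbb, an activin subunit, by 2.12 from 151 and 203 to 13 and 19 (adjusted p = 0.00238), opposite to the rise of the activin-binding Fst. Of 12 Hox genes tested over the 4 clusters (body axis patterning factors) 3 fell and none rose. They were Hoxd1 (-2.29), Hoxc8 (-1.79) and Hoxb5 (-1.40), each from a different cluster, and 9 of the 12 were lower in both pairs. Hoxb5 was not called without the L6-R big array (-1.19, adjusted p = 0.200). Of the 289 called genes 142 were on no list (53 that rose and 89 that fell). Among them Shh, the secreted signalling protein sonic hedgehog, fell by 2.66 from 1871 and 2011 to 225 and 348 (adjusted p = 0.00152), and Tafa2, a secreted neurokine, by 2.72 from 1428 and 1581 to 157 and 256 (adjusted p = 0.00148). Bex1, a small protein of neurons, rose by 2.35 from 115 and 189 to 892 and 881 (adjusted p = 0.00625). These 3 were chosen after their values were seen. On log2(signal + 1) Bex1 (0.0503), Esr1 (0.0944), Nr3c2 (0.0648) and Vamp1 (0.0648) were not called (adjusted p), nor were Esr1 (0.0888) and Vamp1 (0.128) on the mean over probe sets.

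Large housekeeping classes differed by less, and the mitochondrial and ribosomal classes leaned in 1 direction each. None of 81 oxidative phosphorylation subunits was called by limma. Of the 81, 7 had an unadjusted p under 0.05, against 1422 of all 9097 genes tested. In both pairs 53 of the 81 subunits were lower in L6-R and 4 higher, against 33.9% and 31.3% of all genes. Their median was -0.25 (-0.17 in the big and -0.29 in the medium to small pair). Uqcr11, a subunit of complex III, had 1777 and 2221 against 1025 and 1227 (-0.81, adjusted p = 0.113). Of 43 genes of the tricarboxylic acid cycle and mitochondrial import 28 were lower in both pairs, 3 were higher and 1 was called, Sqor, an enzyme that oxidises sulfide, which rose by 3.67 ± 0.29 from 33 and 5 to 528 and 664 (adjusted p = 0.000957). Sqor passed the filter only with the L6-R arrays, and a second probe set of Sqor read 3.45 to 20.8 in the 4 pools. Of 76 mitochondrial ribosomal proteins 39 were lower in both pairs and 7 higher, with a median of -0.16, none called in limma and 6 at an unadjusted p under 0.05. Cytosolic ribosomal proteins stood the other way, with 32 of 38 higher in both pairs, 1 lower, none called in limma (3 at an unadjusted p under 0.05), and a median of 0.38 (0.50 in the big and 0.25 in the medium to small pair). The members of such a class share libraries and scaling and are not independent. No gene passed in limma among 42 proteasome subunits, 29 endoplasmic reticulum chaperone and stress genes, 55 heat shock proteins, 22 cholesterol genes, 40 lysosome and endosome genes, 87 autophagy and ubiquitin genes and 76 chromatin regulators, where 29 of 347 genes had an unadjusted p under 0.05. These class medians lay between -0.13 and 0.07.

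**Figure D3:**
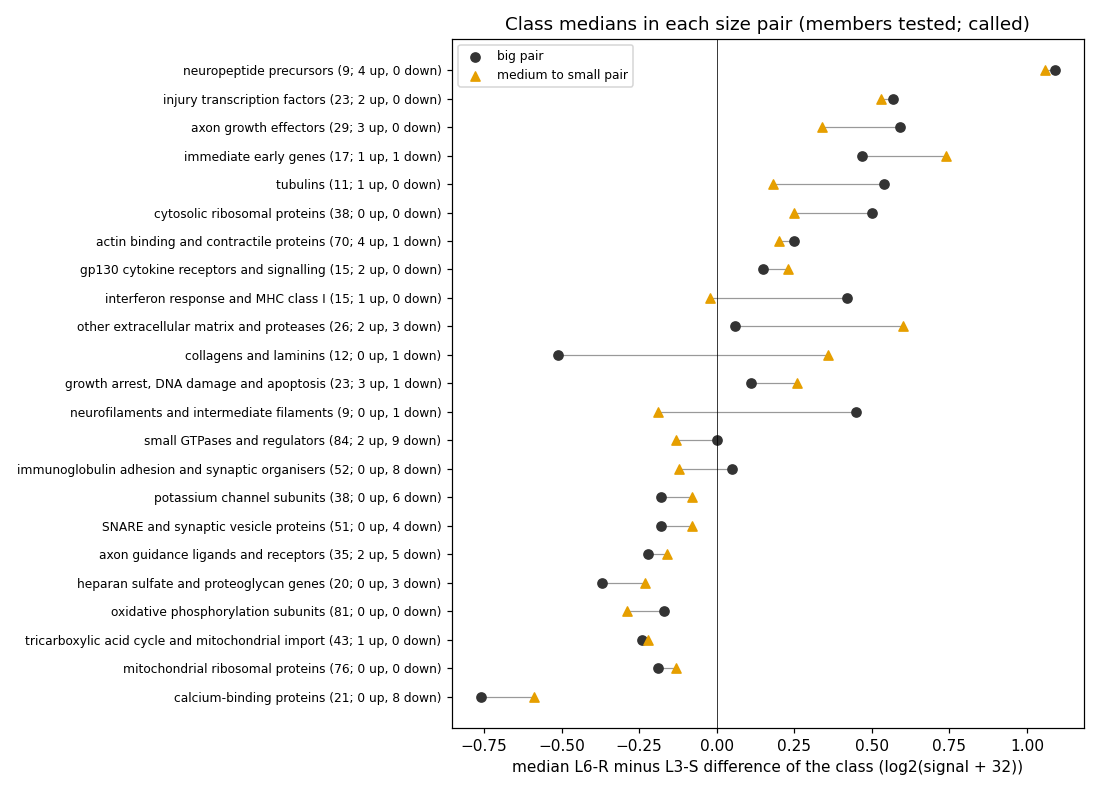
Median L6-R minus L3-S difference (log2(signal + 32)) of 23 gene classes in the big pair (black circles) and in the medium to small pair (orange triangles), with the number of members tested and called beside each name. The calcium-binding proteins lie lowest in both pairs (-0.76 and -0.59) and the neuropeptide precursors highest (1.09 and 1.06), the latter over 9 members of which 3 passed the filter only with the L6-R arrays, while collagens and laminins lie on opposite sides of 0 (-0.51 and 0.36).

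Some markers of neuron types differed with the codes, beside 1.26% called higher and 1.91% lower among all genes. The summed signal of 12 markers of peptidergic nociceptors was 6789 and 7345 in L3-S against 12454 and 10357 in L6-R. Much of this gain was Tac1 alone, with 1758 and 1429 against 5435 and 4090. The bright Scn11a was lower, with 1843 and 1662 against 1551 and 1275. In both pairs 7 of the 10 tested markers were higher and 2 lower. Of the 10 tested, 5 rose (Trpa1, Trpv1, Gfra3, Gal and Tac1) and 1 fell, Kit, a receptor tyrosine kinase, by 1.42 from 216 and 327 to 81 and 78 (adjusted p = 0.0203; 0.257 without the medium to small L6-R array, 0.0524 without that of L3-S, 0.0558 on log2(signal + 1) and 0.109 on the mean over probe sets). Of the 5 that rose, 3 (Trpa1, Trpv1 and Gal) passed the filter only with the L6-R arrays, so the counts describe the tested markers only. Gfra3, the co-receptor for artemin, had 138 and 60 against 476 and 311 and rose by 1.74 (adjusted p = 0.00858). The summed signal of 18 markers of large neurons with myelinated fibres was 46353 and 50618 in L3-S against 37934 and 33599 in L6-R. Of the 15 tested 4 fell and none rose (Pvalb, Calb1, Vamp1 and Hapln4), and Hapln4, a link protein of perineuronal matrix, was not called without the L3-S or the L6-R big array (adjusted p = 0.0816 and 0.128). The neurofilament genes Nefh and Nefm stood at -0.14 and 0.15. Markers of non-peptidergic, itch and C low-threshold neurons summed to 6185 and 6972 against 11168 and 8281, with Sst of 12 under 32 in all 4 pools. Of the 7 tested 1 rose, Osmr, which passed the filter only with the L6-R arrays. Markers of all neurons summed to 66480 and 73902 against 86852 and 72542, and each of the 12 was above 32 in every pool. The part of a different mix of neuron types in the results above was not tested.

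Markers of other cells were measured beside them. Of 15 markers of satellite glia and Schwann cells 2, Mag and Cldn19, were under 32 in all 4 pools, and their sum was 14641 and 18393 in L3-S against 16937 and 22794 in L6-R. None of 12 tested was called in limma, where 3 had an unadjusted p under 0.05, against 1422 of all 9097 genes. In both pairs 8 of the 12 were higher and 2 lower, and 2 of the 12 passed the filter only with the L6-R arrays. Mbp, a myelin protein, had 480 and 1073 against 1179 and 2857 (1.31, adjusted p = 0.132), and Mal, another myelin protein, 64 and 32 against 146 and 303 (1.63, adjusted p = 0.0515). Markers of vessels and fibroblasts summed to 1336 and 1311 against 985 and 1656, with Pecam1, Cdh5 and Col1a1 of 10 under 32 in all 4 pools. Markers of blood and immune cells summed to 212 and 161 against 183 and 322, with 6 of 9 under 32 in all 4. The L6-R medium to small pool had the highest sum of each of these 3 lists, and its part in the results of that pair was not tested.

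**Figure D4:**
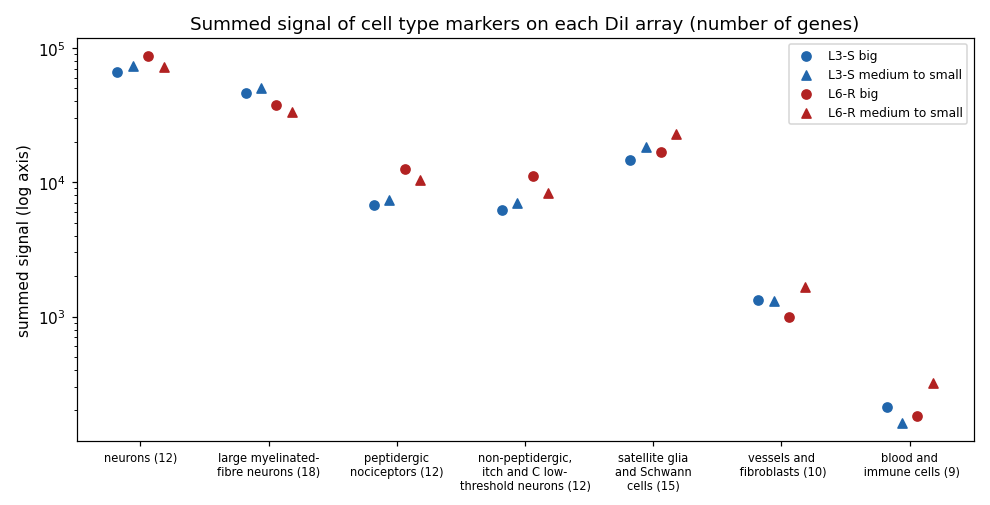
Summed signal (log axis) of 7 lists of cell type markers on each of the 4 DiI arrays, with the number of genes in brackets, L3-S in blue, L6-R in red, circles for big and triangles for medium to small pools. The peptidergic sum is higher in both L6-R pools (12454 and 10357 against 6789 and 7345), much of it through Tac1, and the large-neuron sum is lower. The L6-R medium to small pool has the highest glial, vascular and blood sums (22794, 1656 and 322).

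The 2 size pairs disagreed for few genes. The signs were opposite with at least 0.5 log2 in each pair for 75 genes, 0.824% of those tested, and for 2 genes with at least 1 log2 in each, Rasgrp1 and Mxra8. In 30 of the 75, L6-R was higher in the big and lower in the medium to small pair, and in 45 the reverse. With 1 array per code and size class these disagreements have no test, since they are the residual of the fit. The L6-R big array was the lowest of the 4 for 30 of the 75, the L6-R medium to small array the highest for 29 and the L3-S medium to small array the highest for 23. The L6-R big array is the one with the higher spiked-in controls, and the part of this was not tested. None of the 75 was called in limma, also at an unadjusted p under 0.05, which follows from their choice by opposite signs and is no result. Of their further probe sets, 14 of 35 showed the same opposed signs, 1 of 35 by 0.5 log2 in each pair.

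Among genes higher in L6-R only in the big pair, 23 of 30 were highest in the L3-S medium to small pool. Rasgrp1, an exchange factor for Ras, had signals of 82 and 614 in L3-S against 239 and 183 in L6-R, with pair differences of 1.25 and -1.59. Gfra2, the co-receptor for neurturin found in non-peptidergic and low-threshold C neurons, had 233 and 843 against 617 and 530 (1.29 and -0.64). Th, tyrosine hydroxylase, a marker of C low-threshold neurons, had 76 and 368 against 155 and 165 (0.79 and -1.02), and the transcription factors Runx1, of small neurons, 112 and 247 against 210 and 158 (0.75 and -0.56) and Zfhx3 988 and 1760 against 1622 and 989 (0.70 and -0.81). In Rasgrp1, Gfra2, Th and Runx1 the L3-S pools lay farther apart than the L6-R pools. Ifit1 and Rsad2, interferon-induced antiviral genes, showed the same shape, with 47 and 311 against 90 and 110 (0.62 and -1.27) and 49 and 347 against 110 and 156 (0.81 and -1.01). Ifit2, of the same family, had 82 and 327 against 101 and 116. Ifit1 passed the filter only with the L3-S arrays. Of 15 tested interferon response and MHC class I genes 2 (Ifit1 and Rsad2) were opposed, while 7 were higher in both pairs and 4 lower in both. Over the 15 tested genes of the interferon response and MHC class I, 1 was called, Ifi35, by 1.70 from 610 and 1059 to 2442 and 2946 (adjusted p = 0.0108; 0.0527 without the L6-R big array). Nsmf, a protein that signals from synapse to nucleus, had 939 and 4267 against 1573 and 2209, and Chd5, a chromatin remodeller, 84 and 253 against 202 and 115.

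Among genes higher in L6-R only in the medium to small pair, 29 of 45 were highest in the L6-R medium to small pool. Hspa1a, an inducible heat shock protein, had 221 and 269 in L3-S against 136 and 835 in L6-R (-0.59 and 1.53). Ankrd24 had 797 and 407 against 430 and 1178 (-0.84 and 1.46), and Wdr48, a partner of deubiquitinating enzymes, 265 and 182 against 171 and 564 (-0.55 and 1.48). Fbln5, an elastic fibre protein, had 217 and 123 against 136 and 359 (-0.57 and 1.33), Abca8a, a lipid transporter, 776 and 683 against 331 and 1074 (-1.15 and 0.63), Selenop, a selenium carrier, 909 and 1160 against 562 and 1955, and Gpm6b, a proteolipid, 426 and 439 against 256 and 742. Each had its highest signal in the L6-R medium to small pool and its lowest or next to lowest in the L6-R big pool. In Ank2, an ankyrin scaffold, and Rab39, a small GTPase, by contrast, the L3-S big pool was the highest (901 and 479) and the L3-S medium to small pool the lowest or next to lowest (379 and 190).

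**Figure D5:**
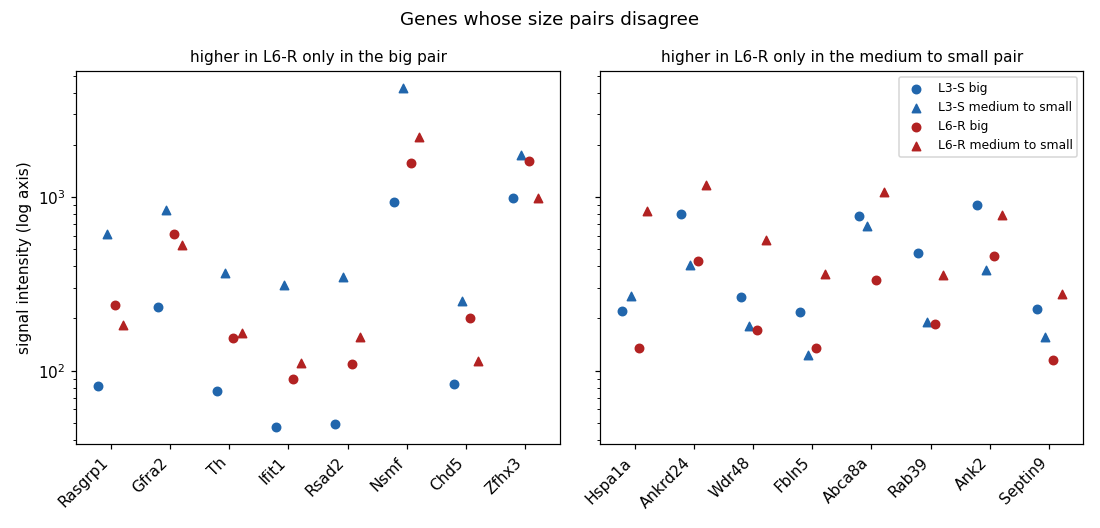
Signal intensity (log axis) on each of the 4 DiI arrays of 8 genes that were higher in L6-R in the big pair and lower in the medium to small pair (left) and of 8 with the reverse (right), with L3-S in blue, L6-R in red, circles for big and triangles for medium to small pools. In the left panel the blue triangle (L3-S medium to small) is the highest point of each gene, and in the right panel the red triangle (L6-R medium to small) is the highest for 6 of the 8, with 835 for Hspa1a and 1178 for Ankrd24.

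A stricter pattern was a difference of at least 1.5 log2 in 1 pair and under 0.25 in the other, among genes with a highest signal of at least 200. It was met upward by Myh9, a non-muscle myosin, in the big pair, and by Klf4, Ccn1, Sh3d19 and the noncoding RNA Rian in the medium to small pair. Klf4, a transcription factor of the immediate early response, had 50 and 41 in L3-S against 54 and 291 in L6-R, and Ccn1, a secreted immediate early protein, had 38 and 49 against 50 and 267, so that 1 pool of 4 stood apart. Fos and Egr1 leaned the same way without meeting the rule, with pair differences of 0.77 and 1.61 and of 0.50 and 1.41, and neither passed (adjusted p = 0.133 and 0.383). Downward it was met by Adat2, Gpm6a, Hapln1 and Unc50 in the big pair, and by Camkk2, a calcium-dependent kinase, and Npy2r, a receptor for neuropeptide Y, in the medium to small pair. Npy2r had 64 and 213 in L3-S against 77 and 17 in L6-R (0.19 and -2.31), beside the rise of Npy itself in both pairs. None of these 11 genes was called in limma, where their unadjusted p-values ran from 0.0240 to 0.117. Their choice by unequal pairs in part sets this outcome.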

How the data were processed

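Total RNA of 6 pools of mouse neurons was measured on Affymetrix arrays. The authors deposited 1 linear signal intensity per probe set and array; the trimmed mean (2% cut at each end) was 150 on every array, and no value was rescaled here. Intensities were compared as log2(signal + 32). For each gene the probe set with the highest mean was kept, and the upper 50% of genes by mean were tested (9097 of 18193). The fit was additive in code and size class over all 6 arrays with limma 3.58.1 in R 4.3.3, with 2 residual degrees of freedom, Benjamini-Hochberg adjustment and a threshold of 0.05; it was tested on simulated data. Size class is the shared replicate label and is in the model. The number of arrays limits the precision. The comparison, gene lists and tests were chosen with earlier results of these data known. Named genes were the largest, brightest and leading called genes of each list, the most opposed genes and those shifted in 1 pair; genes outside this rule, among them Shh, Tafa2, Bex1, Jun, Fos, Gap43, Scn9a, Mbp, Mal, Vsnl1 and Nrp1, were chosen after their values were seen. Alternatives changed the pseudocount, filter, probe set rule, normalization, arrays and thresholds.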

Additional observations from a re-analysis of the deposited data

Results flagged for a closer look

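These results stand out because the pools of 1 size class lay one way and those of the other class the opposite way, or because only 1 pair shifted. Each value is the big pair difference minus the medium to small pair difference on log2(signal + 32), and the difference between the pairs was not tested. The value was above 0 for Rasgrp1 (2.84), Npy2r (2.50), Chd5 (1.97), Gfra2 (1.93), Ifit1 (1.90), Rsad2 (1.82), Th (1.81), Nsmf (1.66), Zfhx3 (1.51), Stxbp5l (1.44) and Kcnmb4 (1.44). It was below 0 for Sh3d19 (-2.34), Ankrd24 (-2.30), Hspa1a (-2.12), Rab39 (-2.03), Wdr48 (-2.03), Ank2 (-1.94), Fbln5 (-1.91), Abca8a (-1.78), Gpm6a (-1.72), Septin9 (-1.52), Wdr1 (-1.52) and Dync1li1 (-1.51). The shift lay in the medium to small pair for Npy2r and in the big pair for Gpm6a. Among classes with at least 5 tested members, the medians had opposite signs with a size of at least 0.1 in each pair for collagens and laminins (-0.87 as the same difference of medians), neurofilaments and intermediate filaments (0.64), neuron markers (0.56) and granins (0.27).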

How the results depend on the processing

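Against 289 called genes (115 higher and 174 lower in L6-R), log2(signal + 1) gave 137 (37 and 100), or 148 (43 and 105) with the probe sets and genes kept, an alternative chosen after seeing the data, no filter on low genes 107 (41 and 66), the upper 25% of genes 115 (38 and 77), the 4 DiI arrays alone 653 (314 and 339) and array weights 633 (290 and 343); the mean over probe sets gave 110 lower. Quantile normalization shared 282 of its 300 calls with the 289. Leaving out 1 array gave 140 to 653 calls, 44 to 314 higher and 81 to 339 lower. Without the replicate block for size class 346 genes were called (146 and 200). Against 269 genes shifted in both pairs, the largest pseudocount tried gave 136, the upper 25% 110, the mean over probe sets 173, a threshold of 0.5 log2 1062 and of 2 log2 45. Against 75 genes with opposed pairs, a pseudocount of 1 gave 163 and the largest one 18, no filter 240, the upper 25% 20 and a threshold of 1 log2 each 2. With a pseudocount of 1 the choice by highest mean fell on another Csf1 probe set, which read -0.069, while the called probe set stood at 1.83 (adjusted p = 0.0503). Klf4, at 1.11 with all arrays, ran from -0.19 without L6-R replicate 2, the medium to small pool, to 2.40 without L6-R replicate 1, the big pool. The causes of the other differences were not tested, apart from fewer genes under the stricter filter. Signals near 32 limit what dim genes can show.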
